A study of Homo sapiens with 6 samples.

Results

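The 39 protein-coding HOX genes of the HOXA, HOXB, HOXC and HOXD clusters were followed in U251 cells, an established human glioma cell line. They were found as the protein-coding features whose symbol was HOX, a cluster letter and a number, and they made up 39 of the 61496 features and of the 19887 protein-coding features in the table. The sequencing compared 3 libraries of untreated control cells with 3 libraries of cells exposed to sevoflurane (Sev), a volatile anesthetic, for 2 h. All cells were grown in DMEM with serum, and all RNA was depleted of ribosomal RNA before strand-specific library preparation. The labelled protocol names 3 Sev concentrations (5.1%, 3.4% and 1.7%) and assigns none to a library, while the legend of the sequencing comparison names 5.1%, which was taken for all 3 Sev libraries. The line is a single tumor line, and a general statement that the quantitative data came from independent experiments does not name the sequencing. The labels do not say whether libraries of a group came from separate cultures, so p-values measure the spread between these libraries, which may be technical.

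HOX genes encode homeodomain transcription factors that give cells of the embryo their position along the head-to-tail axis. In each cluster the genes are transcribed in the same direction and numbered by their order, from position 1, used in anterior tissue such as the hindbrain, to position 13, used in the most posterior tissue, and genes with the same number in different clusters are paralogs. HOX genes are largely silent in the adult cerebral cortex, while many gliomas express them. Polycomb complexes keep HOX genes silent, MLL complexes keep them active, retinoic acid activates the anterior ones, and the TALE homeodomain proteins (MEIS, PBX and PKNOX) bind DNA beside HOX proteins.

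Library totals were between 38624292 and 46318311 counts. Levels between genes are given in FPKM, a deposited unit that corrects for the length of a gene and the size of a library. Changes within a gene are given in CPM, counts scaled by library size and TMM, and as log2 fold changes of Sev against control from a quasi-likelihood fit in edgeR, with p-values adjusted by Benjamini-Hochberg over the 27514 tested features. A gene was called at an adjusted p under 0.05. Most glial markers were present, with VIM at 5485 ± 536 CPM, NES at 1465 ± 46.8 CPM and GFAP at 270 ± 91.4 CPM in control cells (SD, n = 3). Of the 10 glial markers 1 did not pass the filter, with at most 17 counts in any library. Among the 9 tested, S100B and SOX2 fell and CD44 rose. Of the markers of other cell types, the leukocyte genes AIF1 and CD3E and the neuron gene STMN2 had no counts, and PTPRC, EPCAM, CDH1 and MAG did not pass the filter. The summed CPM of 5 endothelial markers moved from between 40.0 and 42.5 in control to between 52.9 and 66.5 in Sev libraries, and KDR, PECAM1 and CLDN5 rose. The summed CPM of 6 neuron markers was between 32.5 and 37.5 in control and between 30.1 and 32.7 in Sev libraries (GAD1 fell and SYT1 rose), that of 5 oligodendrocyte markers between 14.5 and 23.1 and between 18.75 and 19.75 (MBP rose), that of 6 leukocyte markers between 2.297 and 4.80 and between 4.72 and 5.38 (none called), and that of 5 epithelial markers between 27.8 and 28.96 and between 31.9 and 39.2 (KRT18 rose). The part of these shifts in the HOX results was not tested.

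Of the 39 HOX genes, 33 had enough counts to be tested, with at least 13 counts in every library. In Sev cells 14 of these 33 fell (42.4%) and 3 rose (9.09%), where 21.5% of all tested features were lower and 22.1% were higher. Among tested protein-coding genes 21.0% were lower and 25% were higher. The median log2 fold change was -0.52 over the 33 HOX genes and -0.0056 over all tested features, and 23 HOX genes had a value below 0. With library size only as the scaling, which moved the median of all tested features to -0.15, 16 HOX genes fell and 1 rose, and 7502 features were lower and 4665 higher in place of 5920 and 6094. The calls of HOXA2, HOXA5, HOXA6, HOXB13, HOXC6, HOXC8, HOXD3, HOXD4, HOXD9, HOXD10 and HOXD11, all lower, held under each of the 15 alternative settings. With a stricter rule, a log2 fold change over 1 either way and an unadjusted p under 0.05, 10 HOX genes were lower and 2 were higher, beside 12% and 11.4% of all tested features and 7.62% and 9.07% of tested protein-coding genes. The 3 control and 3 Sev libraries did not overlap for 16 HOX genes that were lower and 5 that were higher in Sev, where 28.2% and 28.3% of all tested features and 26.6% and 31.2% of tested protein-coding genes had such separate groups. In bulk RNA, fewer cells with a transcript and less of the transcript per cell cannot be told apart.

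**Figure D1:**
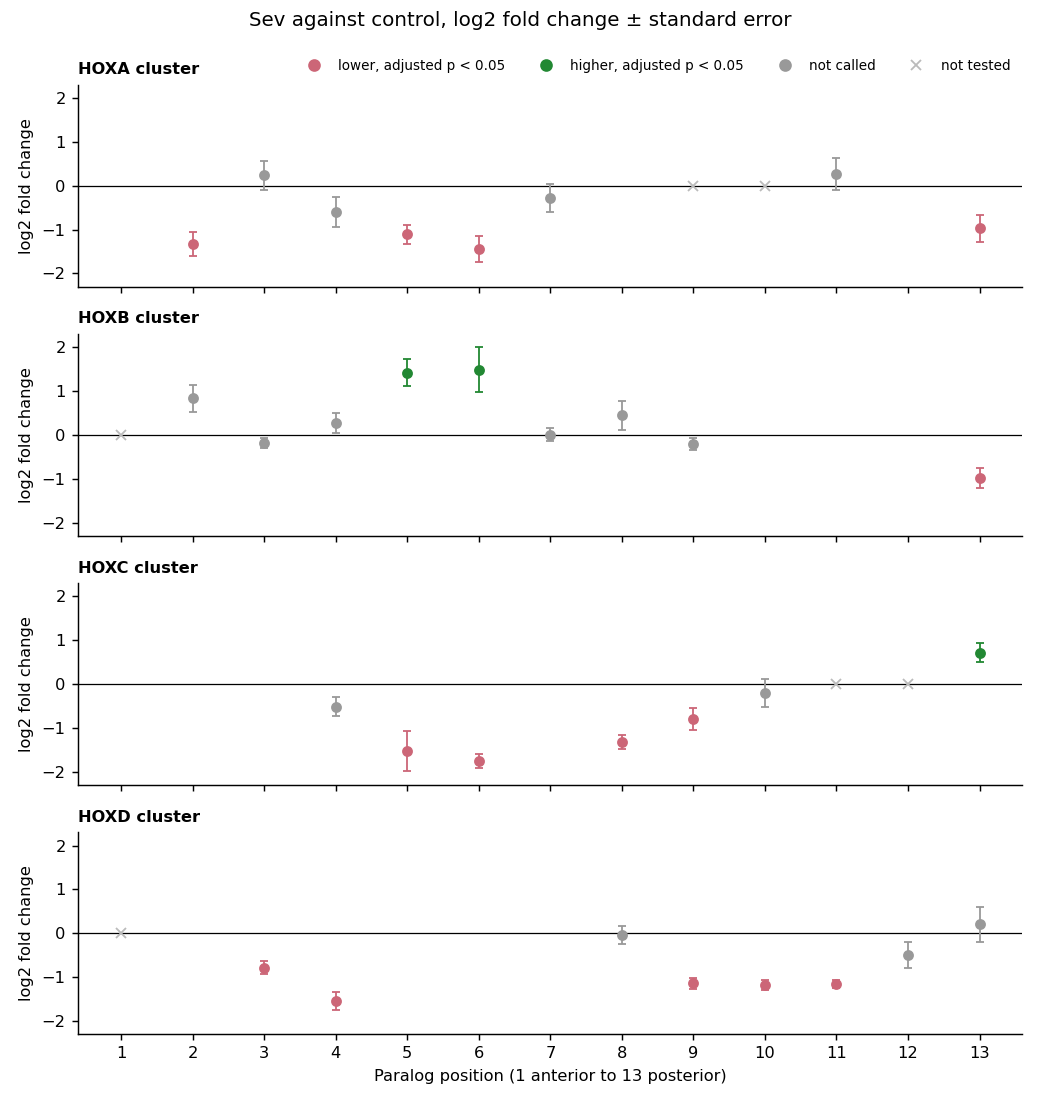
Log2 fold change of Sev against control (vertical axis) by paralog position (horizontal axis) for each cluster, with 1 of the 39 genes left out. Points are edgeR estimates, bars are standard errors, red marks genes that fell, green genes that rose, gray genes not called, and crosses the 6 genes not tested. Of the 3 genes that rose, HOXB5 and HOXB6 lie in the HOXB cluster and HOXC13 in the HOXC cluster.

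The HOXD cluster lies on chromosome 2 between 176092891 and 176190907 (GRCh38, GENCODE 29, 98.0 kb, plus strand). Promoter sequences are printed for HOXD3, HOXD8 and HOXD11 because HOXD11 was the most highly expressed HOX gene, HOXD3 fell as well, and HOXD8 lies between them on the chromosome and was not called. They are the bases before the gene start in the RefSeq promoter table (GRCh38.p14), which held 27 windows for 20 of the 39 HOX genes, and capitals mark the letters CACGTG, the E-box core read alike on both strands. HOXD9, HOXC6, HOXC8, HOXB5 and HOXB6 were among the genes without an entry. The windows are chr2:176107030-176107279 for HOXD11, chr2:176157057-176157306 for HOXD3 and chr2:176129455-176129693 for HOXD8, all on the plus strand and outside GENCODE exons. The HOXD3 and HOXD11 windows lie inside the GENCODE spans of these genes, each before a start that RefSeq places downstream of the first GENCODE one, and the HOXD8 window ends at the base before the GENCODE start.
HOXD11: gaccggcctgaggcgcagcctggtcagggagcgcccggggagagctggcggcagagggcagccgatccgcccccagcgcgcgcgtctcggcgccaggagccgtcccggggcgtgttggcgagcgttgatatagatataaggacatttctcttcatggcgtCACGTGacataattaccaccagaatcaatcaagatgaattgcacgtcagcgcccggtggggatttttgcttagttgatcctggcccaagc
HOXD3: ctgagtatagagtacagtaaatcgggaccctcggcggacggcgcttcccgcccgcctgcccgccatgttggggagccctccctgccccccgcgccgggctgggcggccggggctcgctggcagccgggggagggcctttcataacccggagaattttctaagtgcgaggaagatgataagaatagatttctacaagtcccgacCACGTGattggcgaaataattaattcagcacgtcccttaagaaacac
HOXD8: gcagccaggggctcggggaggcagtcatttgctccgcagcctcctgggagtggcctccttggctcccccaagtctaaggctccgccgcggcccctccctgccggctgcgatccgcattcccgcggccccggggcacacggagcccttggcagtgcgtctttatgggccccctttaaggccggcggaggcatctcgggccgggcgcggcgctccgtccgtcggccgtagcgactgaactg

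The letters CACGTG were found in 8 of the 27 HOX windows (29.6%) and in 6.35% of all 34961 windows of the 250 bases before a start. In the HOXD cluster they lay in the windows of HOXD3, HOXD10 and HOXD11, which fell, in that of HOXD13, which was not called, and in that of HOXD1, which was not tested. The windows of HOXD4, which fell, and of HOXD8 and HOXD12, which were not called, did not hold these letters. In the HOXA cluster they lay in the windows of HOXA3 and HOXA4, which were not called, and of HOXA9, which was not tested, so of the 6 tested genes with these letters 3 fell and 3 were not called. The match began 90 bases before the start of HOXD11, 47 before HOXD3, 106 before HOXD10 and 131 before HOXD13. The HOXD10 match lies in an exon that GENCODE gives there. The 30 bases around the matches of these 4 tested HOXD genes are shown on the plus strand.
HOXD3: acaagtcccgacCACGTGattggcgaaata
HOXD10: caggctctggagCACGTGacccgagaggag
HOXD11: tcttcatggcgtCACGTGacataattacca
HOXD13: cgttcctaccccCACGTGgccgcgcgcagc
The letters CCAAT, searched on both strands, were in 18 of the 27 HOX windows (66.7%) and in 32.0% of all windows, and TATAAA in 5 (18.5%) against 10.7%. HOXC4 and HOXC5 both had CCAAT at -200 and -77 from the start, so the 27 windows may not all be separate promoters. The TALE half-site TGACAG was in 2 HOX windows (7.41%) against 13%, the PBX and HOX site TGATTNAT in 2 (7.41%, HOXA2 and HOXD11) against 2.49%, and the CRE site TGACGTCA in 0 against 1.65%. The HOX windows held a median of 19 CpG, against 11 over all windows. A match is a description of letters and says nothing of which factor was bound.

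HOXD genes gave the largest share of HOX RNA. Of the 8 tested HOXD genes 5 fell (62.5%, against 21.5% of all tested features) and none rose (against 22.1%). The summed FPKM of the 9 HOXD genes was 119, 89.2 and 99.5 in the control libraries and 41.2, 42.2 and 41.8 in the Sev libraries. This was on average 67.6% of all HOX FPKM in control and 53.7% in Sev cells. The Sev libraries lay closer together than the control libraries, and the groups did not overlap.

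HOXD11 (ENSG00000128713), a gene of limb, kidney and lumbosacral patterning, had the highest control level of the 39, 35.2 ± 3.59 FPKM (SD, n = 3). Its CPM was 94.65, 80.4 and 87.9 in control and 37.6, 40.7 and 38.7 in Sev libraries. The log2 fold change was -1.17 ± 0.090 (SE, edgeR adjusted p = 0.000131), a 2.25-fold lower level. HOXD10 (ENSG00000128710), which marks lumbar motor neurons in the embryo, was next at 34.1 ± 5.95 FPKM, which differed from HOXD11 by less than the spread. Its CPM was 126, 94.9 and 102 in control and 47.2, 48.9 and 45.7 in Sev libraries, and it fell by 1.19 ± 0.12 on the log2 scale (SE, edgeR adjusted p = 0.000299). In both genes control library 1 was the highest, and the lowest control library was well above the highest Sev library. GENCODE gives the pair 452 exon bases in common on the same strand, 21.4% of the HOXD11 exon bases, and how reads in them were assigned is not given in the sources used here.

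HOXD9 (ENSG00000128709), the neighbor of HOXD10, stood at 18.1 ± 3.20 FPKM in control. Its CPM was 46.0, 33.5 and 40.0 in control and 19.25, 17.1 and 17.5 in Sev libraries, a log2 fold change of -1.15 ± 0.13 (SE, edgeR adjusted p = 0.000536). The 3 adjacent genes HOXD9, HOXD10 and HOXD11 thus had log2 fold changes between -1.19 and -1.15. HOXD4, a gene of the hindbrain and neck region, had a control level of 9.56 ± 2.02 FPKM and the most negative log2 fold change of the cluster's HOX genes. Its CPM was 15.5, 11 and 11.7 in control and 4.04, 5.30 and 3.69 in Sev libraries, a change of -1.56 ± 0.20 (SE, edgeR adjusted p = 0.000831). HOXD3, its neighbor, had 15.7, 12.4 and 13.5 CPM in control and 7.62, 9.02 and 7.40 CPM in Sev libraries, a change of -0.79 ± 0.15 (SE, edgeR adjusted p = 0.00378). The groups of all 3 genes were separate.

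HOXD8 lies between HOXD9 and HOXD3 and was not called. Its log2 fold change was -0.04, with a 95% interval from -0.51 to 0.43, and its CPM ran from 4.88 to 5.98 in control and from 4.12 to 6.52 in Sev libraries. This interval did not reach the log2 fold change of HOXD9, and the count ratio of HOXD8 to HOXD9, which no scaling between libraries changes, moved from -2.91 ± 0.14 to -1.83 ± 0.42 on the log2 scale (SD, n = 3), with the pair picked after its values were seen. At the 5′ end, HOXD12 and HOXD13, genes of digit formation, were low, at 0.406 ± 0.031 and 0.237 ± 0.10 FPKM in control, with log2 fold changes of -0.50 and 0.20 that were not called. HOXD1, at the anterior end, had 0 to 9 counts a library and was not tested.

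**Figure D2:**
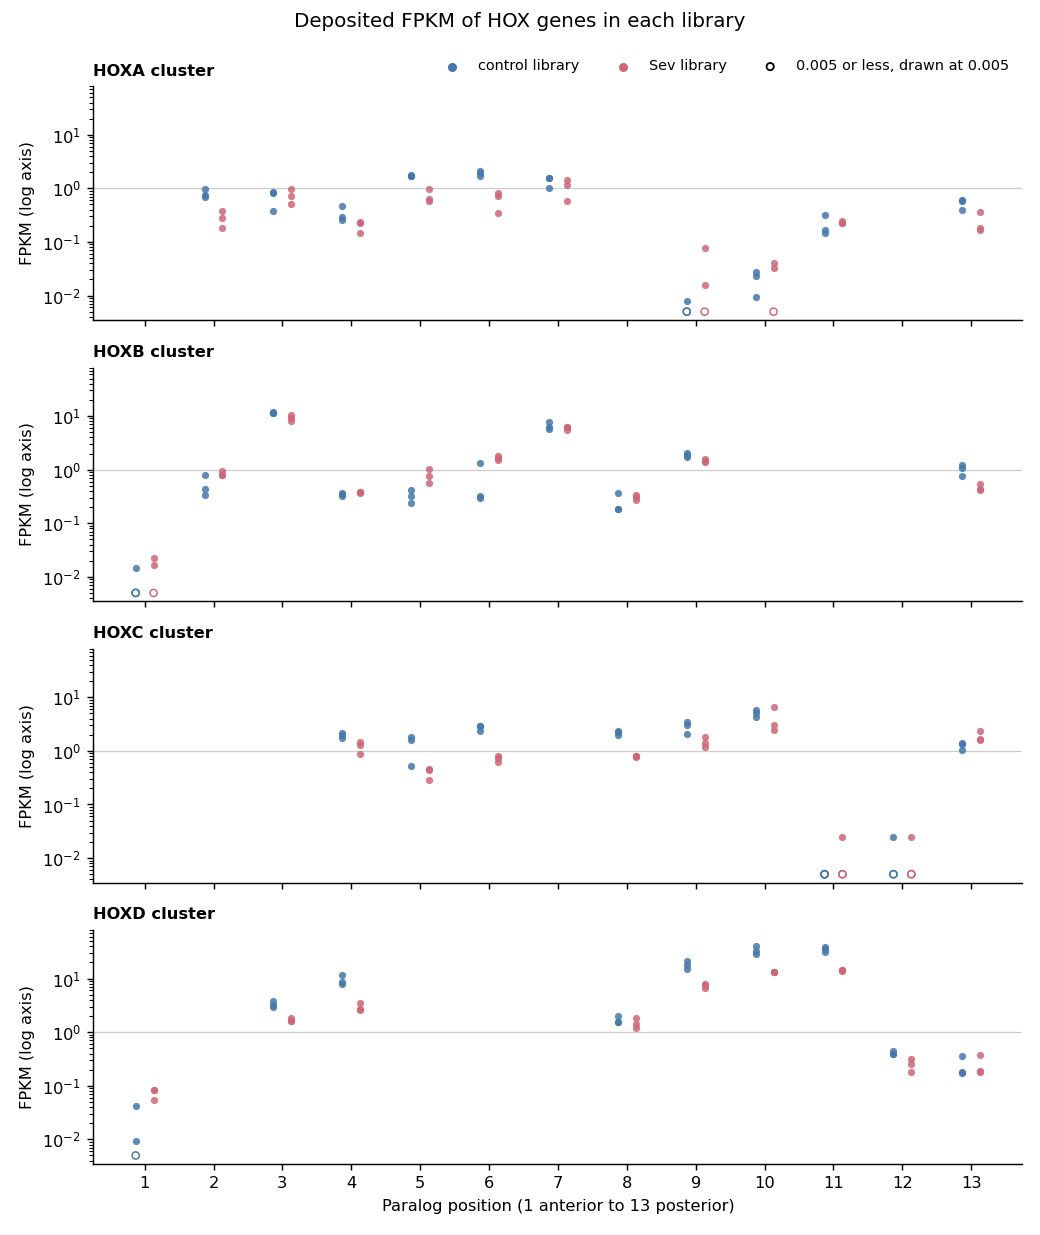
Deposited FPKM (vertical log axis) of the HOX genes by paralog position (horizontal axis), 1 of the 39 left out, with a panel for each cluster, blue points for the 3 control libraries and red points for the 3 Sev libraries, and open points for values of 0.005 or less. HOXD9, HOXD10 and HOXD11 stand above all other genes in the control libraries, and their Sev points lie below their control points.

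The HOXC cluster lies on chromosome 12 between 53938765 and 54056030 (117 kb, plus strand), and its summed FPKM was 17.3 ± 1.68 in control and 10.45 ± 2.17 in Sev cells. Of 7 tested genes 4 fell (57.1%, against 21.5% of all tested features) and 1 rose (14.3%, against 22.1%). HOXC6 (ENSG00000197757), a gene of the brachial and thoracic region, had the most negative log2 fold change of all HOX genes. Its CPM was 11.5, 9.69 and 12.1 in control and 3.32, 2.95 and 3.58 in Sev libraries, a change of -1.75 ± 0.16 (SE, edgeR adjusted p = 0.000202), or 3.37-fold lower. HOXC8, a gene of thoracic vertebrae and limb motor neurons, had 6.31, 6.69 and 5.73 CPM in control and 2.39, 2.66 and 2.42 CPM in Sev libraries, a change of -1.32 ± 0.15 (SE, edgeR adjusted p = 0.000545). For both genes each Sev library was below every control library by a margin wider than either group's range.

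HOXC5 and HOXC9 fell with less margin. HOXC5 had 3.78, 3.41 and 1.11 CPM in control and 0.690, 1.14 and 1.01 CPM in Sev libraries, a log2 fold change of -1.54 ± 0.45 (SE, edgeR adjusted p = 0.0271). Control library 3 lay within the Sev range, so the groups overlapped, and the call held in 2 of 6 fits that left a library out, those without control library 3 (adjusted p = 0.00367) and without Sev library 2 (adjusted p = 0.0477). GENCODE places 59.9% of the HOXC5 exon bases in the processed transcript ENSG00000273046 on the same strand, so the gene's own reads are uncertain. That transcript was given at most 1 count in any library, and how shared reads were assigned is not known. HOXC9, a thoracic gene, had 5.74, 6.87 and 4.04 CPM in control and 3.90, 3.17 and 2.50 CPM in Sev libraries, a change of -0.80 ± 0.25 (SE, edgeR adjusted p = 0.0333). It was called in 2 of the 6 fits, without control library 3 (0.0199) or Sev library 1 (0.0367), with adjusted p up to 0.103 in the others.

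HOXC13, a gene of hair and nail formation, rose. Its CPM was 3.78, 3.003 and 3.77 in control and 5.04, 7.64 and 4.72 in Sev libraries, a log2 fold change of 0.72 ± 0.22 (SE, edgeR adjusted p = 0.0325), with Sev library 2 the highest. The call held in the fits without Sev library 1 (adjusted p = 0.0470) or Sev library 3 (0.0252) and in none of the other 4, where adjusted p reached 0.1003. HOXC10, a lumbar gene, stood at 5.06 ± 0.74 FPKM in control and had 15.7, 12.2 and 14.6 CPM in control and 7.49, 9.79 and 19.4 CPM in Sev libraries. Sev library 3 was above all controls and the other Sev libraries were below them, and the log2 fold change of -0.21 ± 0.32 was not called (edgeR adjusted p = 0.621). Without Sev library 3 it was -0.71 (adjusted p = 0.0215). HOXC4, which shares 484 exon bases with HOXC6, was at -0.52 (edgeR adjusted p = 0.0847), with separate groups. HOXC11 and HOXC12 had 0 to 5 counts a library and were not tested.

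The HOXA cluster lies on chromosome 7 between 27092993 and 27200106 (107 kb, minus strand). Its summed FPKM was 8.51, 8.61 and 8.18 in control and 4.90, 3.05 and 5.97 in Sev libraries. Of 9 tested genes 4 fell (44.4%, against 21.5% of all tested features) and none rose (against 22.1%). HOXA6 had 2.55, 3.23 and 2.99 CPM in control and 1.25, 0.612 and 1.36 CPM in Sev libraries, a log2 fold change of -1.44 ± 0.30 (SE, edgeR adjusted p = 0.00652). HOXA5, which acts in lung and neck formation, had 3.43, 3.58 and 3.67 CPM in control and 1.46, 1.33 and 2.15 CPM in Sev libraries, a change of -1.11 ± 0.22 (SE, edgeR adjusted p = 0.00524). In these neighbors Sev library 2 was the lowest and Sev library 3 the highest of the Sev group, and no Sev library reached a control value.

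HOXA2, the patterning gene of the hindbrain and facial arches, had 2.62, 2.07 and 1.90 CPM in control and 0.876, 0.612 and 1.14 CPM in Sev libraries, a log2 fold change of -1.32 ± 0.28 (SE, edgeR adjusted p = 0.00657). HOXA13, a gene of the limb tip and genital tract, had 3.50, 2.45 and 3.42 CPM in control and 1.14, 1.25 and 2.37 CPM in Sev libraries, a change of -0.97 ± 0.31 (SE, edgeR adjusted p = 0.0368). Control library 2 and Sev library 3 of HOXA13 were close to each other, and the call held in 2 of 6 fits, without control library 2 (adjusted p = 0.0396) or without Sev library 3 (0.00622), with adjusted p up to 0.113 in the others. Between HOXA2 and HOXA13 several genes were not called. HOXA3, HOXA4, HOXA7 and HOXA11 had log2 fold changes of 0.24, -0.59, -0.27 and 0.27 at control levels between 0.214 and 1.40 FPKM, and their groups overlapped. HOXA-AS3, an antisense transcript, covers 62.5% of the HOXA7 and 39.3% of the HOXA6 exon bases on the opposite strand, and the strand setting of the counting is not given in the sources used here. HOXA9 and HOXA10, genes often raised in leukemia, had 0 to 12 and 0 to 9 counts a library and were not tested.

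The HOXB cluster lies on chromosome 17 between 48528526 and 48729178 (201 kb, minus strand). Its summed FPKM was 23.4, 24.0 and 21.6 in control and 19.8, 21.6 and 21.8 in Sev libraries, and its share of all HOX FPKM was on average 15.3% in control and 27.1% in Sev cells. Of 9 tested genes 2 rose (22.2%, near the 22.1% of all tested features) and 1 fell (11.1%, against 21.5%), and the median log2 fold change was 0.27, where it was -0.59 in HOXA, -0.80 in HOXC and -0.97 in HOXD.

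HOXB5 (ENSG00000120075), which acts in shoulder position and gut neurons, rose from a low level of 0.324 ± 0.087 FPKM. It had 0.567, 1.01 and 0.783 CPM in control and 1.54, 2.10 and 2.68 CPM in Sev libraries, a log2 fold change of 1.42 ± 0.30 (SE, edgeR adjusted p = 0.00721), or 2.68-fold higher. HOXB6, its neighbor, had 4.04, 0.934 and 1.01 CPM in control and 5.55, 5.30 and 5.98 CPM in Sev libraries. All Sev values were above control library 1, which was itself far above the other control libraries. The log2 fold change of 1.49 ± 0.52 passed narrowly (SE, edgeR adjusted p = 0.0489). Without control library 1 it was 2.51 (adjusted p = 0.000884), and without any of the other 5 libraries it lay between 1.15 and 1.54 with adjusted p between 0.0809 and 0.131, past the limit. HOXB3 and HOXB6 share 433 exon bases on the same strand, 16.6% of the HOXB6 exon bases.

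HOXB13, known from the prostate and the tail end of the body, fell. It had 3.03, 5.05 and 4.39 CPM in control and 1.91, 2.08 and 2.35 CPM in Sev libraries, a log2 fold change of -0.97 ± 0.23 (SE, edgeR adjusted p = 0.0105), with separate groups. HOXB3, a hindbrain gene and the fourth in control level at 11.5 ± 0.29 FPKM, had 98.7, 105 and 98.6 CPM in control and 78.6, 104 and 85.2 CPM in Sev libraries. Sev library 2 lay within the control range, and the change of -0.17 ± 0.11 was not called (edgeR adjusted p = 0.241), while without Sev library 2 it was -0.30 (0.0307). HOXB7 stood at 6.54 ± 1.05 FPKM and had 10.9, 14.1 and 10.2 CPM in control and 12.3, 11.02 and 11.9 CPM in Sev libraries, a log2 fold change of 0.0048 with a 95% interval from -0.34 to 0.35. HOXB2, HOXB4, HOXB8 and HOXB9 were at 0.84, 0.27, 0.45 and -0.21 and were not called. The groups of HOXB2, HOXB4 and HOXB9 were separate and those of HOXB8 overlapped. For HOXB2 the edgeR adjusted p was 0.0561, or 0.0112 without control library 1. HOXB1 had 0 to 3 counts a library and was not tested.

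**Figure D3:**
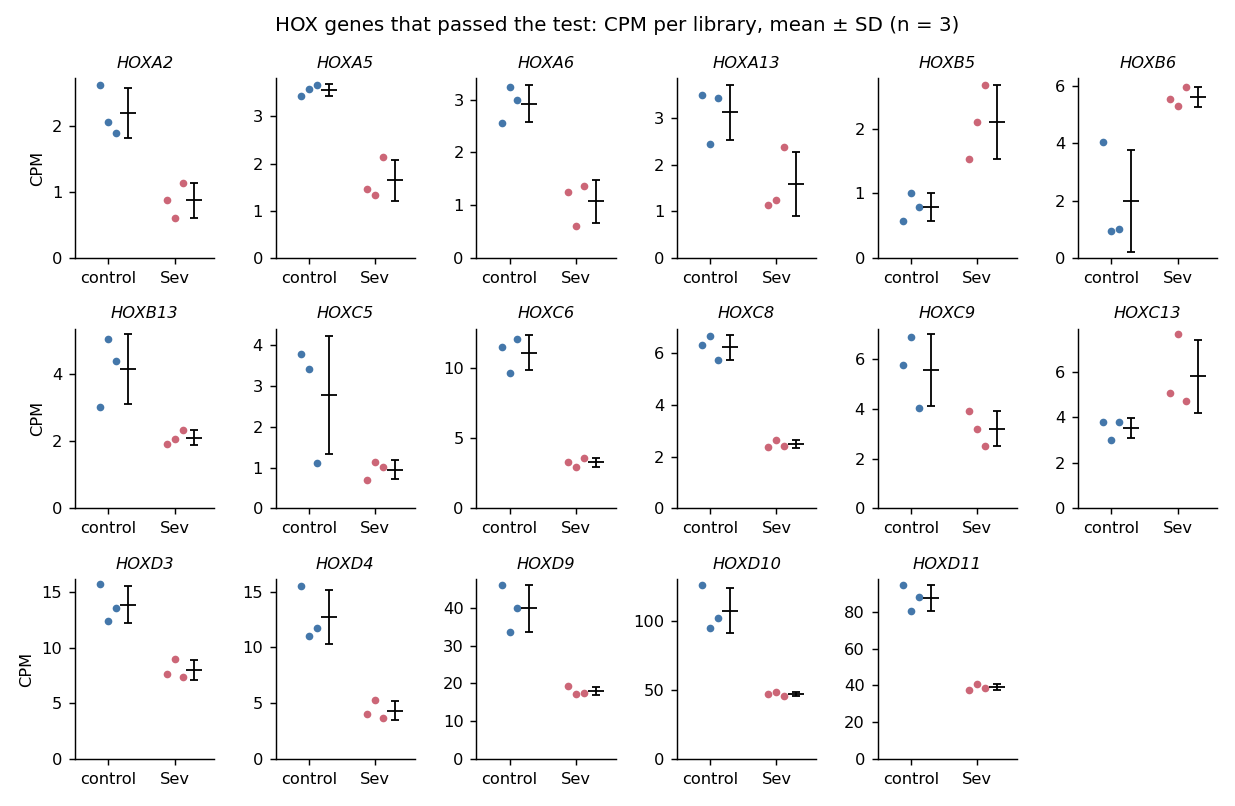
CPM (vertical axis, from 0) of the 17 called HOX genes in each control (blue) and Sev (red) library, with black marks for the mean and SD of 3 libraries. HOXC5 is the 1 gene whose groups overlap, and HOXB6 has 1 control library, at 4.04 CPM, apart from the other controls.

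Paralogs at positions 5, 6 and 13 moved in different directions. At position 5, HOXA5 and HOXC5 fell and HOXB5 rose, and at position 6, HOXA6 and HOXC6 fell and HOXB6 rose. At position 13, HOXA13 and HOXB13 fell, HOXC13 rose and HOXD13 was at 0.20 and not called. The log2 ratio of HOXB5 to HOXA5 counts was -2.60, -1.83 and -2.23 in control and 0.077, 0.66 and 0.32 in Sev libraries, so HOXB5 had fewer counts than HOXA5 in every control library and more in every Sev library. For HOXB6 to HOXA6 the log2 ratio was 0.66, -1.79 and -1.57 in control and 2.15, 3.11 and 2.13 in Sev libraries, and for HOXC13 to HOXA13 it was 0.18 ± 0.098 in control and 1.92 ± 0.83 in Sev cells (SD, n = 3). These pairs were picked after their values were seen.

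By position across clusters, 3 of 10 tested genes at positions 1 to 4 fell (30%) and none rose. At positions 5 to 8, 5 of 11 fell (45.5%) and 2 rose (18.2%). At positions 9 to 13, 6 of 12 fell (50%) and 1 rose (8.33%). Of all tested features 21.5% were lower and 22.1% higher. The median log2 fold changes of the 3 position groups, in the same order, were -0.55, -0.27 and -0.65. By level, 10 of 19 genes with a mean of at least 1 FPKM over all libraries fell and 2 rose, and 4 of the 14 tested genes under 1 FPKM fell and 1 rose. Genes that fell ranged in position from HOXA2 to HOXA13 and HOXB13, and in control level from HOXA13, at 0.523 FPKM, to HOXD11.

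**Figure D4:**
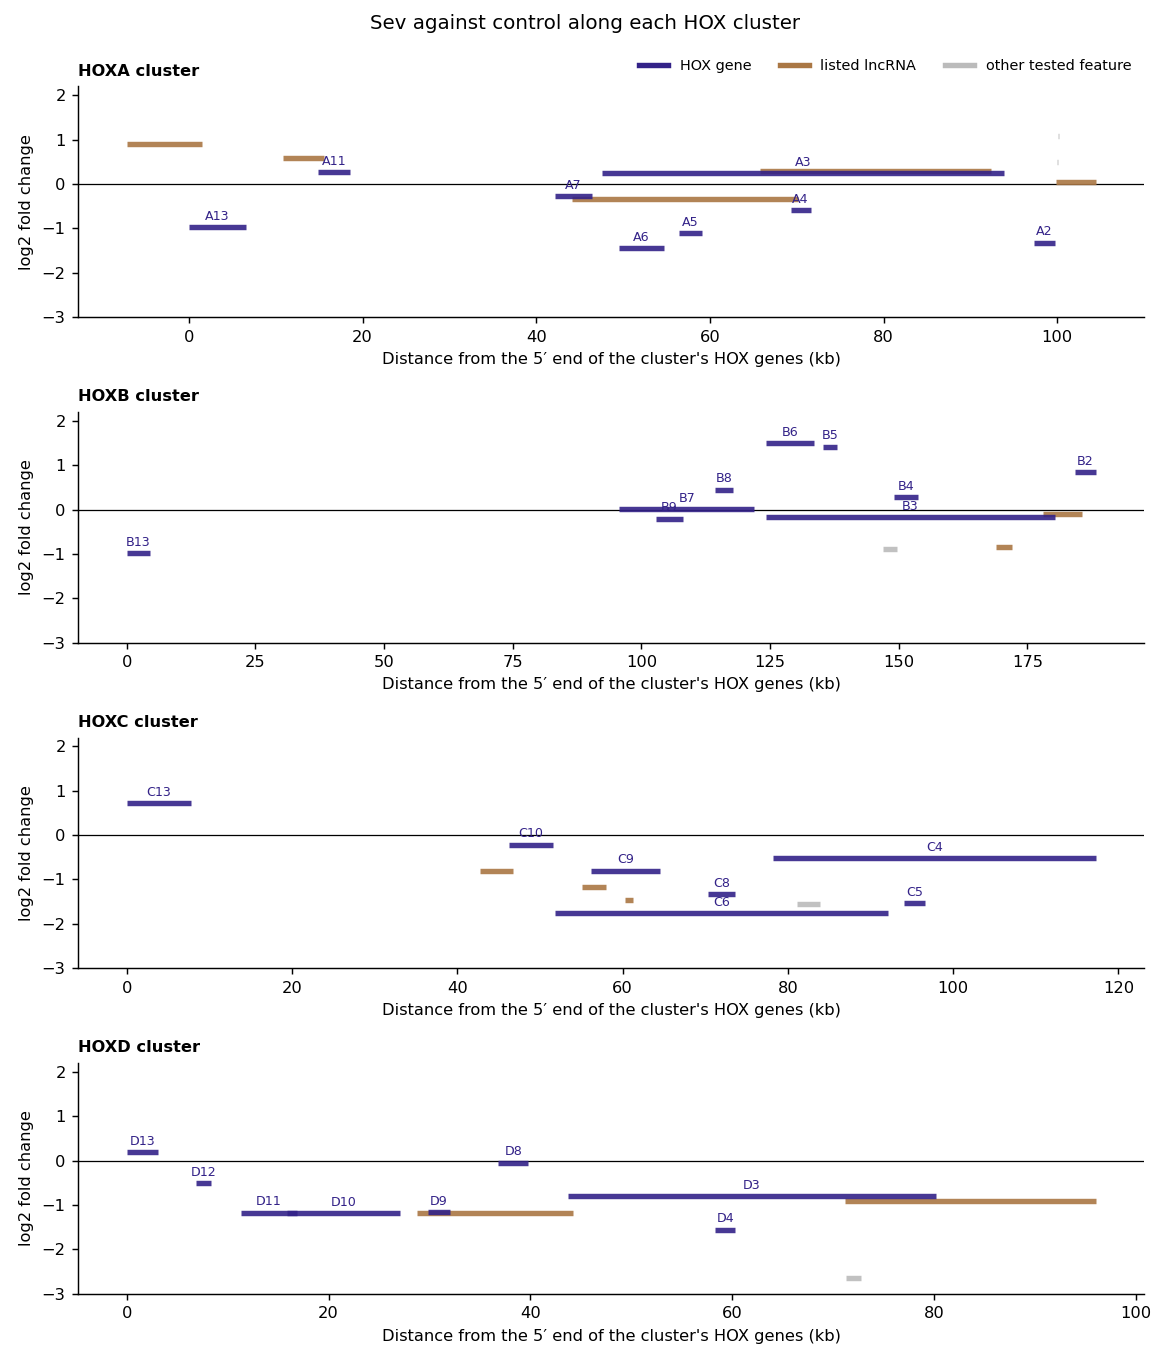
Log2 fold change of Sev against control (vertical axis) along each cluster, with distance in kb from the 5′ end of the HOX genes on the horizontal axis and the span of each gene as a bar. HOX genes are dark blue, with 1 left out, listed lncRNAs brown and other tested features gray, and the fallen HOXD9, HOXD10 and HOXD11 lie side by side near -1.2 with HOXD8 near 0 next to them.

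Long non-coding RNAs of the clusters, several of which run antisense to HOX genes and some of which recruit chromatin complexes, were followed as a list of 18. Of the 12 tested 5 fell (41.7%, against 21.5% of all tested features) and none rose, with a median log2 fold change of -0.57. HOXC-AS1, within the span of HOXC9, had 0.996 ± 0.20 CPM in control and 0.358 ± 0.049 in Sev cells, a log2 fold change of -1.47 (SD, n = 3, edgeR adjusted p = 0.0055). HOXC-AS2 went from 6.63 ± 0.40 to 2.94 ± 0.46 CPM (-1.17), HOXD-AS2 from 8.26 ± 1.38 to 3.65 ± 0.18 CPM (-1.18), HAGLR, the lncRNA that starts near HOXD1, from 7.27 ± 1.36 to 3.86 ± 0.45 CPM (-0.91), and HOXB-AS2 from 17.0 ± 0.92 to 9.41 ± 2.13 CPM (-0.85). The groups of all 5 were separate. Not called were HOXC-AS3 at -0.80, HOXA-AS3 at -0.35, HOXB-AS1 at -0.11, HOTAIRM1 at 0.041, HOXA-AS2 at 0.29, HOXA11-AS at 0.59 and HOTTIP, at the HOXA13 end, at 0.91 with at most 16 counts a library. HOTAIR and 5 others had at most 14 counts in any library and were not tested. The 6 microRNA genes of the clusters, with at most 10 counts, were not tested either.

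Of 11 tested TALE cofactors 4 fell (36.4%) and 1 rose (9.09%), with a median log2 fold change of -0.18, where 21.5% of all tested features were lower and 22.1% higher. MEIS2 had 335 ± 4.82 CPM in control and 148.5 ± 4.17 in Sev cells, a log2 fold change of -1.17 (SD, n = 3, edgeR adjusted p = 5.8e-05), and MEIS1 went from 27.3 ± 1.48 to 14.8 ± 0.79 CPM (-0.89). PKNOX1 at -0.70 and MEIS3 at -0.47 also fell, and TGIF2, a repressor of the same class, rose by 0.35. PBX2, PBX3 and PBX4 were not called, with log2 fold changes between -0.22 and 0.35. TGIF2 was not called, and 6 members fell, with library size only as the scaling, and it was not called without control library 2, control library 3 or Sev library 2 either.

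Of 35 Polycomb subunits 8 fell (22.9%) and 6 rose (17.1%), near the 21.5% and 22.1% of all tested features, with a median log2 fold change of 0.016. With library size only as the scaling 13 fell and 5 rose, while 4 fell without control library 2, control library 3 or Sev library 1, and 5 without control library 1. CBX7, a reader of the repressive mark, went from 25.9 ± 4.26 to 6.98 ± 1.70 CPM (-1.89, SD, n = 3, edgeR adjusted p = 0.00042), and the methyltransferases EZH1 and EZH2 were at -1.33 and -0.47. CBX2 (-0.90) and PHC3 (-0.40) also fell, while RYBP, a subunit of variant complexes, rose from 42.7 ± 1.11 to 102 ± 9.21 CPM (1.26), and PHC2, SCMH1, JARID2 and PCGF6 rose by 0.50 to 0.85. Of 25 MLL complex members and H3K27 demethylases 4 fell (16%) and 7 rose (28%), with a median of -0.020. With library size only 6 fell and 4 rose, and without control library 1 or control library 3 the number that rose was also 4. The methyltransferase SETD1A rose from 50.2 ± 4.99 to 149 ± 33.5 CPM (1.57, SD, n = 3, edgeR adjusted p = 0.000367), followed by HCFC1, AFF4, WDR5 and ASH1L at 0.36 to 0.64. MLLT3, an elongation cofactor, went from 24.7 ± 2.19 to 11.15 ± 1.29 CPM (-1.15), and AFF1, PSIP1 and MLLT10 were lower by a log2 fold change of -0.61, -0.53 and -0.39.

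Of 16 tested genes of retinoid handling and CDX input 7 rose (43.75%, against 22.1% of all tested features) and 3 fell (18.75%, against 21.5%), with a median log2 fold change of 0.16. CRABP2, the carrier of retinoic acid to the nucleus, went from 7.98 ± 0.53 to 18.9 ± 7.63 CPM (1.24, SD, n = 3, edgeR adjusted p = 0.00771). CYP26B1, which degrades retinoic acid, rose by 1.05, and DHRS3 and RDH10, enzymes of retinal and retinol conversion, by 1.04 and 0.56. CYP26A1 rose from 5, 0 and 0 counts in control to 24, 13 and 14 in Sev libraries, too few in control for a stable fold. The receptors RXRB, NR2F2 and RXRA fell, with log2 fold changes of -0.96, -0.73 and -0.56. CDX1, CDX2 and CDX4, the caudal-type factors that activate posterior HOX genes in the embryo, had at most 5 counts a library and were not tested. With library size only as the scaling, 4 genes of the list rose and 4 fell. Without any 1 of the control libraries or Sev library 1 the number that rose was 4, and without Sev library 2 the number that fell was 5.

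Of 24 tested genes that flank the clusters 6 fell (25%) and 3 rose (12.5%), with a median of -0.12, where 21.5% of all tested features were lower and 22.1% higher. Beside HOXC, CALCOCO1 went from 46.1 ± 6.36 to 18.8 ± 4.28 CPM (-1.30, SD, n = 3, edgeR adjusted p = 0.00119), and SMUG1, a DNA repair glycosylase, from 12.5 ± 2.74 to 5.42 ± 0.50 CPM (-1.21). TTLL6 (-1.45), LNPK (-0.42) and ATF2 (-0.42) were among the others that fell, and SKAP1 (1.90, with 3 to 15 counts in control), SNX11 (0.72) and TAX1BP1 (0.35) rose. With library size only as the scaling, 11 flanking genes fell and 2 rose.

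**Figure D5:**
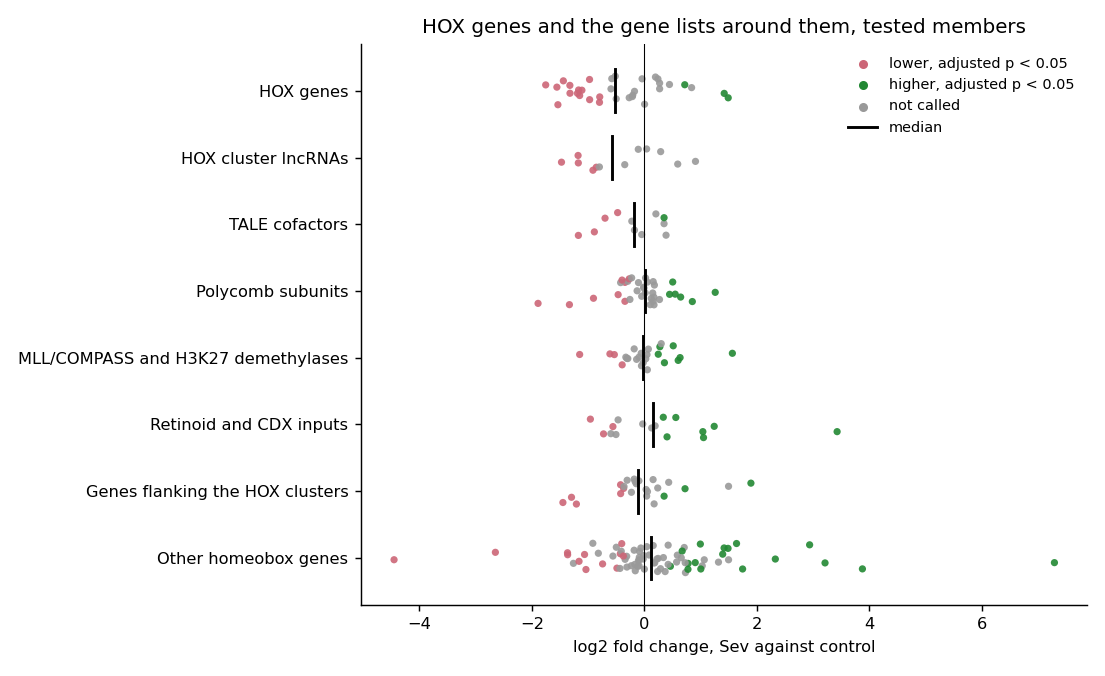
Log2 fold change of Sev against control (horizontal axis) of each tested member of the HOX genes and of 7 other lists (vertical axis), with red for genes that fell, green for genes that rose, gray for genes not called and a black line at each list's median. The medians of the HOX genes, -0.52, and of the HOX cluster lncRNAs, -0.57, lie below those of the other lists, which run from -0.18 to 0.16. The fitted value of a gene with few or no counts in control depends on the prior count.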

How the data were processed

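RNA of U251 cells was sequenced in 3 untreated control and 3 Sev libraries, each grouped by its title. The authors deposited counts per feature and FPKM values, a unit meant to correct for gene length and library size. At low counts the FPKM did not follow the deposited counts in proportion. HOXD1 had 4 counts and 0.041 FPKM in control library 1, and 2 counts and 0.0095 FPKM in control library 3. The FPKM of genes with few counts are therefore uncertain. The submitters' processing notes name bcl2fastq 2.19, featureCounts and the build hg18, while the deposited identifiers include ones newer than that build. The aligner, the annotation and the strand setting of the counting are not given in the sources used here. Reads of overlapping and antisense genes are therefore uncertain. Of 60564 Ensembl identifiers 60295 matched a symbol, and positions came from GENCODE 29 on GRCh38. The 932 features with MSTRG names kept them. Promoters came from the RefSeq table of GRCh38.p14.

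Counts were analyzed in R 4.3.3 with edgeR 4.0.16 (filterByExpr, TMM, glmQLFit, glmQLFTest) across all features, 3 Sev against 3 control, with no covariate and Benjamini-Hochberg adjustment at 0.05. TMM factors were between 0.918 and 1.08. SE was obtained from the size of the log2 fold change and its quasi-likelihood F value. The stricter rule, a log2 fold change over 1 either way with p under 0.05, is the threshold of the study's methods. An exact permutation test of 3 against 3 cannot go under 0.1, so none is given. Each library held 38624292 counts or more, and precision is limited by 3 replicates a group and, for genes with few counts, by depth. In each pair of libraries of a group, 49.0% to 66.6% of 15608 genes differed beyond counting noise, so no library was a copy. Alternatives were DESeq2 size factors, library size only, the DESeq2 1.42.0 Wald test, no filter, at least 10 counts in every library, a replicate block, each library left out, and limma 3.58.1 on log2(FPKM + 1) or log2(FPKM + 0.1), on features with 0.5 FPKM or more in 3 libraries, and also unfiltered for log2(FPKM + 1). The models were tested on simulated data. Motifs were searched in the 250 bases before each start, on both strands.

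The HOX genes and the other lists were chosen with earlier results of these data known. The lists were written from general knowledge. The results of some genes, 1 HOX gene among them, are not reported here. Values in every library are given for called HOX genes and for the 10 with the highest mean control FPKM. HOX cluster lncRNAs that were tested are all named, and from each other list at most 5 called genes a direction, by the largest absolute log2 fold change.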

Additional observations from a re-analysis of the deposited data

How the results depend on the processing

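In all 15 alternatives 11 of the 17 called HOX genes stayed called, each of them lower. HOXB5 stayed called in 14, HOXC9 in 10, HOXC5 in 9, HOXB6 in 7 and HOXC13 in 5, and HOXA13 in 7 of its 13. No called gene changed direction. The groups share replicate numbers, but same-numbered libraries did not deviate together (r = -0.085, 0.017 and 0.091 over 13156 genes). With the replicate block 13 HOX genes fell and 2 rose, HOXC5 (adjusted p = 0.0540) and HOXC13 (0.0765) were not called, Polycomb genes that fell went from 8 to 5, and no TALE gene rose (0). HOX genes that rose numbered 1 with library size only, 1 without a filter and 0 by limma on unfiltered log2(FPKM + 1). By limma on log2(FPKM + 1), with or without the filter, 5 HOX genes were lower and 0 higher under the stricter rule, since the pseudocount shrinks changes of low genes. Leaving out a library gave 1 to 3 HOX genes that rose, 11 to 14 that fell, 1 to 3 higher and 9 to 13 lower under the stricter rule, and a median from -0.65 to -0.33. The count that rose was 1 without control library 2, control library 3 or Sev library 2. The median was -0.66 with library size only, -0.22 without a filter, -0.81 by limma on log2(FPKM + 0.1) and -0.22 on unfiltered log2(FPKM + 1). The median of all features was -0.11 and -0.17 in the filtered FPKM fits.

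Reversed log2 fold changes were all of genes not called. HOXB7 (0.0048) was -0.13 with library size only, -0.0080 without a filter, -0.00042 with at least 10 counts in every library, -0.11 by limma on log2(FPKM + 1) with and without the filter, -0.12 on log2(FPKM + 0.1), and -0.093 to 0.15 with a library left out. With a library left out, HOXD8 ran from -0.25 to 0.095, HOXA3 from -0.050 to 0.45, HOXA7 from -0.55 to 0.0095, HOXC10 from -0.71 to 0.045 and HOXD13 from -0.19 to 0.58. The cause was not tested.

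For the other lists, with library size only 11 flanking genes and 13 Polycomb genes fell and 4 MLL, 4 retinoid and 0 TALE genes rose. By limma on log2(FPKM + 1), filtered or not, and on log2(FPKM + 0.1), 1 flanking, 4 MLL and 0 TALE genes rose and 10 flanking genes fell. Retinoid genes that rose numbered 3, 3 and 2, and other homeobox genes that rose 7, 7 and 10, for log2(FPKM + 1), log2(FPKM + 0.1) and the unfiltered fit. Without a filter 5 Polycomb genes fell and 4 MLL genes rose. Leaving out a library gave 4 to 6 Polycomb and 7 to 13 other homeobox genes that fell, 3 to 5 retinoid genes that fell, and 4 to 6 MLL, 4 to 5 retinoid and 0 to 1 TALE genes that rose.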

Other observations

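Other transcribed features inside the clusters were few. Of 35 features within the 4 spans that are neither HOX genes nor on the lncRNA and microRNA lists, 5 were tested. Of these 2 fell (40%, against 21.5% of all tested features) and 1 rose (20%, near the 22.1% of all tested features). ENSG00000272729, an antisense transcript on chromosome 2 between 176164164 and 176165716 (GRCh38) within HOXD3, had 83, 55 and 78 counts in control and 11, 4 and 15 in Sev libraries, a log2 fold change of -2.65 ± 0.40 (SE, edgeR adjusted p = 0.00162). It also lies within the span of HAGLR on the same strand, so its own reads are uncertain. ENSG00000260597, a lincRNA on chromosome 12 between 54019910 and 54022589 within HOXC4, had 13.5, 10.7 and 12.2 CPM in control and 4.86, 3.46 and 4.17 CPM in Sev libraries, a change of -1.54 ± 0.17 (SE, edgeR adjusted p = 0.000483). This lincRNA lies within the span of HOXC6 as well, on the same strand as both genes, so its own reads are uncertain. The 2 short misc_RNA features ENSG00000274396 and ENSG00000277694 inside the span of HOTAIRM1 on chromosome 7, on the same strand, were at 1.08 (edgeR adjusted p = 0.0144) and 0.50 (not called), and their reads cannot be told apart from those of HOTAIRM1.

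Of 118 other homeobox genes 76 were tested, of which 17 rose (22.4%) and 12 fell (15.8%), with a median log2 fold change of 0.12, where 22.1% of all tested features were higher and 21.5% lower. Without Sev library 1 the number that fell was 7. POU3F2, a neural transcription factor used in glioma stem cells, went from 254 ± 13.5 to 98.5 ± 6.09 CPM, a change of -1.36 (SD, n = 3, edgeR adjusted p = 6.7e-05). HOMEZ went from 7.11 ± 0.50 to 1.13 ± 0.22 CPM (-2.65), and ONECUT2 (-1.37) and OTX1 (-1.16) also fell. NANOG had 35, 26 and 21 counts in control and 3, 0 and 0 in Sev libraries, and its reads are uncertain because near-identical pseudogenes exist. LHX3, ONECUT3 and CUX2, developmental factors of the nervous system, were among the genes with the highest fitted changes and had 0 to 11 counts in every control library. LHX3 had 3, 5 and 0 in control and 37, 38 and 35 in Sev libraries.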
